A study of Mus musculus with 9 samples.

Results

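miR-19a and miR-19b-1 are the 2 hairpins of the miR-19 family within the miR-17~92 cluster, and their 4 mature arms were followed through an allelic series of mouse embryos at embryonic day 9.5. The 4 arms were taken by name from the 986 miRNA entries of the table: the guide arms mmu-miR-19a-3p and mmu-miR-19b-3p, which are the abundant strands, and their partner arms mmu-miR-19a-5p and mmu-miR-19b-1-5p, written below without the species prefix. Heart and tail bud had been dissected away, and small RNA of the remaining embryo was sequenced in 1 library per genotype, all labelled female. In 2 libraries miR-19 was deleted: the full deletion of the cluster and ΔmiR-19. In 6 libraries both miR-19 hairpins were kept: the single-family deletions ΔmiR-17, ΔmiR-18 and ΔmiR-92, the deletion of 2 families ΔmiR-17,18, the deletion of 3 families ΔmiR-17,18,92, and wild type. miR-20a, which has the seed of miR-17, went with it: miR-20a-5p stood at 21.2 nRPM in ΔmiR-17, against 31072 nRPM in wild type. The sources used here give no strain, zygosity or number of embryos per library. With 1 library per genotype, a difference between genotypes cannot be told apart from a difference between embryos or libraries.

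Drosha cuts the hairpins of such a cluster out of 1 primary transcript, Dicer then cuts off the loop, and 1 arm of the duplex is kept by Argonaute as the guide while its partner is mostly degraded. The guide finds its target mRNAs mainly through its seed, the bases after the first base at the 5′ end. miR-19 is known from mouse lymphoma models as a main oncogenic component of miR-17~92, and the cluster is needed for normal heart, lung and skeletal development.

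The mature sequences are shown because the guides of both hairpins share a seed and because 1 of them is also made from another chromosome. They are from RefSeq (GRCm38.p6), which held 3 of the 4 arms, and are written 5′ to 3′ with the seed, bases 2 to 8, in capitals.
miR-19a-3p: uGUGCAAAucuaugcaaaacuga
miR-19b-3p: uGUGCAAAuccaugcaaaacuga
miR-19b-1-5p: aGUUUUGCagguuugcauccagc
miR-19b-2-5p: aGUUUUGCagauuugcaguucagc
The guides differed at 1 of 23 bases, U11C, with the base of miR-19a-3p first and positions counted from 1 at the 5′ end. Among the 1738 mature entries of the RefSeq table, only these 2 names had the seed GUGCAAA. miR-19b-3p has a second hairpin, Mir19b-2, in the X-linked paralog cluster (chrX:52741983-52742066, minus strand), which no allele of the series deletes and whose guide has the same sequence. Its partner arm miR-19b-2-5p has a sequence of its own, as has miR-19b-1-5p, so the partner arms separate the loci and the guide does not.

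The hairpins are shown with the guide arm in capitals.
Mir19a: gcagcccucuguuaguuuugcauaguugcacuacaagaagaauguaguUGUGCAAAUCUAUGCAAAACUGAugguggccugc
Mir19b-1: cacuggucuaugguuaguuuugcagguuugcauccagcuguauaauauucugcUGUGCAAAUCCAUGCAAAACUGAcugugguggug
Mir19a is at chr14:115044000-115044081 and Mir19b-1 at chr14:115044305-115044391 (GRCm38, plus strand), both in exon 2 of the non-coding host gene Mir17hg. Mir19a is the third hairpin of the cluster, 53 bases after Mir18 and 75 bases before Mir20a. Mir19b-1 is the fifth, 41 bases after Mir20a and 35 bases before Mir92-1. The deposited table was made on mm9 and holds no coordinates.

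**Figure D1:**
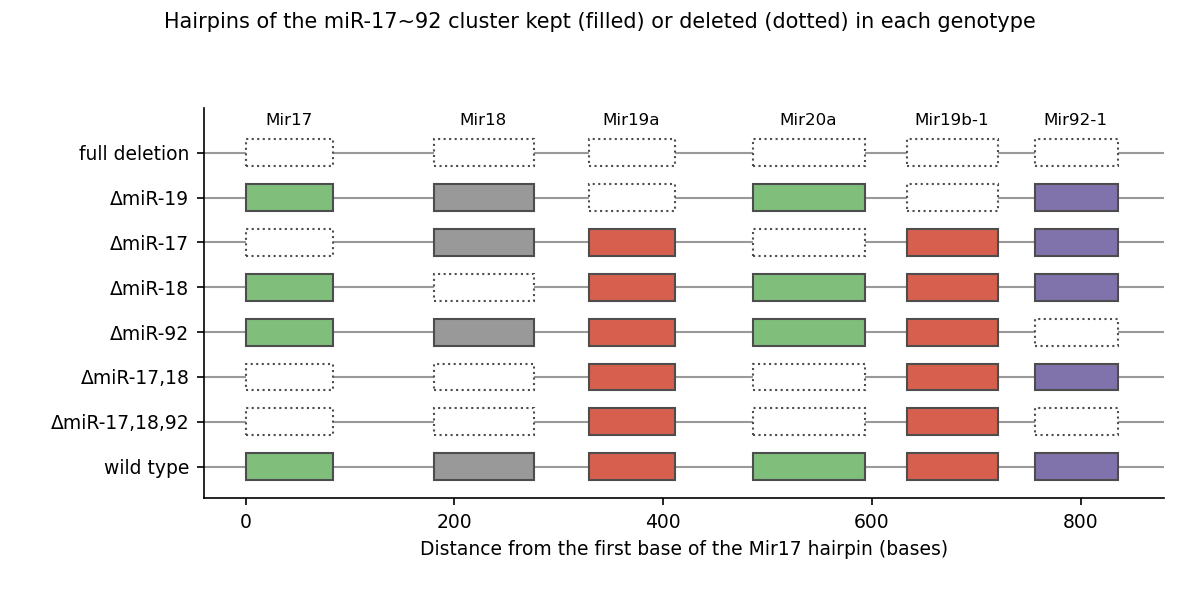
The 6 hairpins of the cluster by their distance in bases from the first base of Mir17 (GRCm38), drawn once for each of the 8 genotypes. Filled boxes are kept hairpins and dotted boxes deleted ones, with miR-19 hairpins in red. Mir19a lies 329 to 410 bases and Mir19b-1 634 to 720 bases from that point, and Mir20a lies between them.

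Levels are given in nRPM, the deposited size-factor-normalised values multiplied by 1 factor so that the totals of the 8 libraries average that of RPM values. The libraries held 6564471 to 18481380 reads, so that 1 read equalled 0.0624 to 0.157 nRPM. Intervals are exact 95% intervals from read counts and cover counting error only. ΔmiR-17,18 stood apart from the other libraries. It held more reads of deleted arms (miR-17-5p 180.0 nRPM, against 8.87 to 10.1 nRPM in the other 3 libraries without miR-17). Of the 8 libraries it also had the highest summed arms of heart muscle (263 nRPM, against 47.8 nRPM in wild type), striated muscle (5904 against 3103 nRPM), endothelium (17558 against 10720 nRPM) and early embryo (9548 against 7047 nRPM). Single arms carried these sums: 3 of 6 heart, 3 of 7 striated muscle, 1 of 2 endothelial and 5 of 9 early-embryo arms were higher than in wild type, and 1, 2, 1 and 4 were lower. miR-208a-3p had 175.5 nRPM in ΔmiR-17,18 and 6.27 nRPM in wild type, miR-1a-3p 5005 against 2485 nRPM, miR-126-3p 14901 against 8047 nRPM and miR-367-3p 2211 against 285 nRPM. miR-133a-5p had 41.9 against 81.9 nRPM and miR-126-5p 2657 against 2673 nRPM. These arms were picked as examples after their values were seen. No arm of the 4 lists was at 0 in all 8 libraries. These 4 were the lists that ranked highest in ΔmiR-17,18 among all lists summed. Primitive red cells, neural tube, posterior body axis and liver were highest in other libraries. Against wild type, ΔmiR-17,18 was lower for neural tube (2643 against 3260 nRPM) and posterior body axis (25793 against 29705 nRPM). It was higher for primitive red cells (220 against 184 nRPM) and liver (168 against 69.4 nRPM). The part of these markers in the results on ΔmiR-17,18 was not tested.

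All 4 arms were lower than in wild type in both libraries from which miR-19 had been deleted, and both partner arms had no read there. miR-19a-3p had 4.93 nRPM (47 reads) in the full deletion and 15.1 nRPM (144 reads) in ΔmiR-19, against 9621 nRPM in wild type. miR-19a-5p had 0 reads in both deletions and 56.4 nRPM (360 reads) in wild type, so that it was at least 178.7-fold lower if each deletion is set to 3 reads. miR-19b-1-5p, the arm that only the deleted locus makes, had 0 reads in both and 95.4 nRPM (609 reads) in wild type, at least 302-fold lower on the same floor. For arms whose hairpin is kept, fewer cells that make a miRNA and less of it per cell cannot be told apart in bulk embryos. Of the 551 miRNAs averaging 10 nRPM or more, 12% were 2-fold or more lower than wild type in the full deletion and 10.3% in ΔmiR-19.

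miR-19b-3p was the exception in depth of loss. It had 2852 nRPM (27172 reads) in the full deletion and 1541 nRPM (14648 reads) in ΔmiR-19, against 26894 nRPM in wild type. That left 10.6% (10.5 to 10.7) of the wild-type level in the full deletion and 5.73% (5.63 to 5.83) in ΔmiR-19, where miR-19a-3p had 0.0513% and 0.157% left. The X-linked partner arm miR-19b-2-5p was present in both, at 8.29 nRPM (79 reads) in the full deletion and 15.4 nRPM (146 reads) in ΔmiR-19, against 7.67 nRPM (49 reads) in wild type. Over the 6 libraries that kept miR-19 it lay between 7.67 and 18.3 nRPM, a range that holds both deletions.
The guide was thus counted 344 times (276 to 435) for each read of miR-19b-2-5p in the full deletion and 100.3 times (85.2 to 119) in ΔmiR-19, against 2808 to 11238 times in the libraries that kept Mir19b-1. The ratio in the full deletion exceeded that in ΔmiR-19 beyond counting error. The sources used here do not say how a read that matches both loci was counted.

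The 10 arms of the X-linked paralog cluster were described beside this, since it also makes miR-19b-3p. In the full deletion, where 8.71% of all miRNAs tested were 2-fold or more higher than in wild type, 3 of the 10 were (miR-106a-5p, miR-20b-5p and miR-363-5p) and 0 were 2-fold or more lower, with a median ratio to wild type of 1.49. In ΔmiR-19, where 5.44% were, 1 of the 10 was higher (miR-19b-2-5p) and 0 were lower, with a median ratio of 1.36. Over all 551 miRNAs the median ratio was 1.01 in the full deletion and 1.02 in ΔmiR-19. Of the 8 neighbour arms of the cluster itself, which ΔmiR-19 keeps, 1 was 2-fold or more lower there, miR-20a-5p with 13908 nRPM against 31072 nRPM in wild type, and 0 were higher.

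Across all 8 libraries, the 2 without miR-19 lay below the 6 with it on every arm. miR-19a-3p averaged 10.04 ± 7.22 nRPM where deleted (SD, n = 2) and 22665 ± 30382 nRPM where kept (SD, n = 6). miR-19b-3p averaged 2196 ± 927 nRPM where deleted (SD, n = 2) and 80371 ± 57875 nRPM where kept (SD, n = 6). The kept means were 41.7 ± 36.1 nRPM for miR-19a-5p and 114.5 ± 14.9 nRPM for miR-19b-1-5p (SD, n = 6), against no reads where deleted. A two-sided exact permutation test of deleted against kept libraries gave p = 0.0357 for each arm, the smallest p that its 28 splits allow. Without the full deletion or without ΔmiR-19 the same exact test gave p = 0.143 for each arm, again the smallest it allows. In a limma model over 8 libraries with an additive term for each family, 4 of 551 miRNAs (0.726%) passed an adjusted p of 0.05 for loss of miR-19, and all 4 were these arms. edgeR also called these 4 and no others (0.726%), and DESeq2 called them among 6 miRNAs (1.09%). The deleted hairpins encode these arms, so the exact test and these calls only check the deletions. The partner arms reached the filter of an average of 10 nRPM only through the libraries that kept miR-19. The miR-19 term was -10.11 ± 0.59 (log2, SE; limma adjusted p = 5.61e-05) for miR-19a-3p and -4.89 ± 0.41 (limma adjusted p = 0.000499) for miR-19b-3p. It was -6.86 ± 0.34 (limma adjusted p = 3.02e-05) for miR-19b-1-5p and -4.91 ± 0.65 (limma adjusted p = 0.0110) for miR-19a-5p. As the partner arms have 0 reads where deleted, the pseudocount sets the size of their terms. With a pseudocount of 0.5 and of 10 nRPM the term was -7.86 and -3.65 for miR-19b-1-5p and -5.88 and -2.07 for miR-19a-5p, which at 10 nRPM was not called (limma adjusted p = 0.215). Leaving out 1 library, the term of miR-19a-5p ran from -6.28 without the full deletion to -3.35 without ΔmiR-19 (limma adjusted p = 0.446), and its call was also lost without wild type (limma adjusted p = 0.0982).

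**Figure D2:**
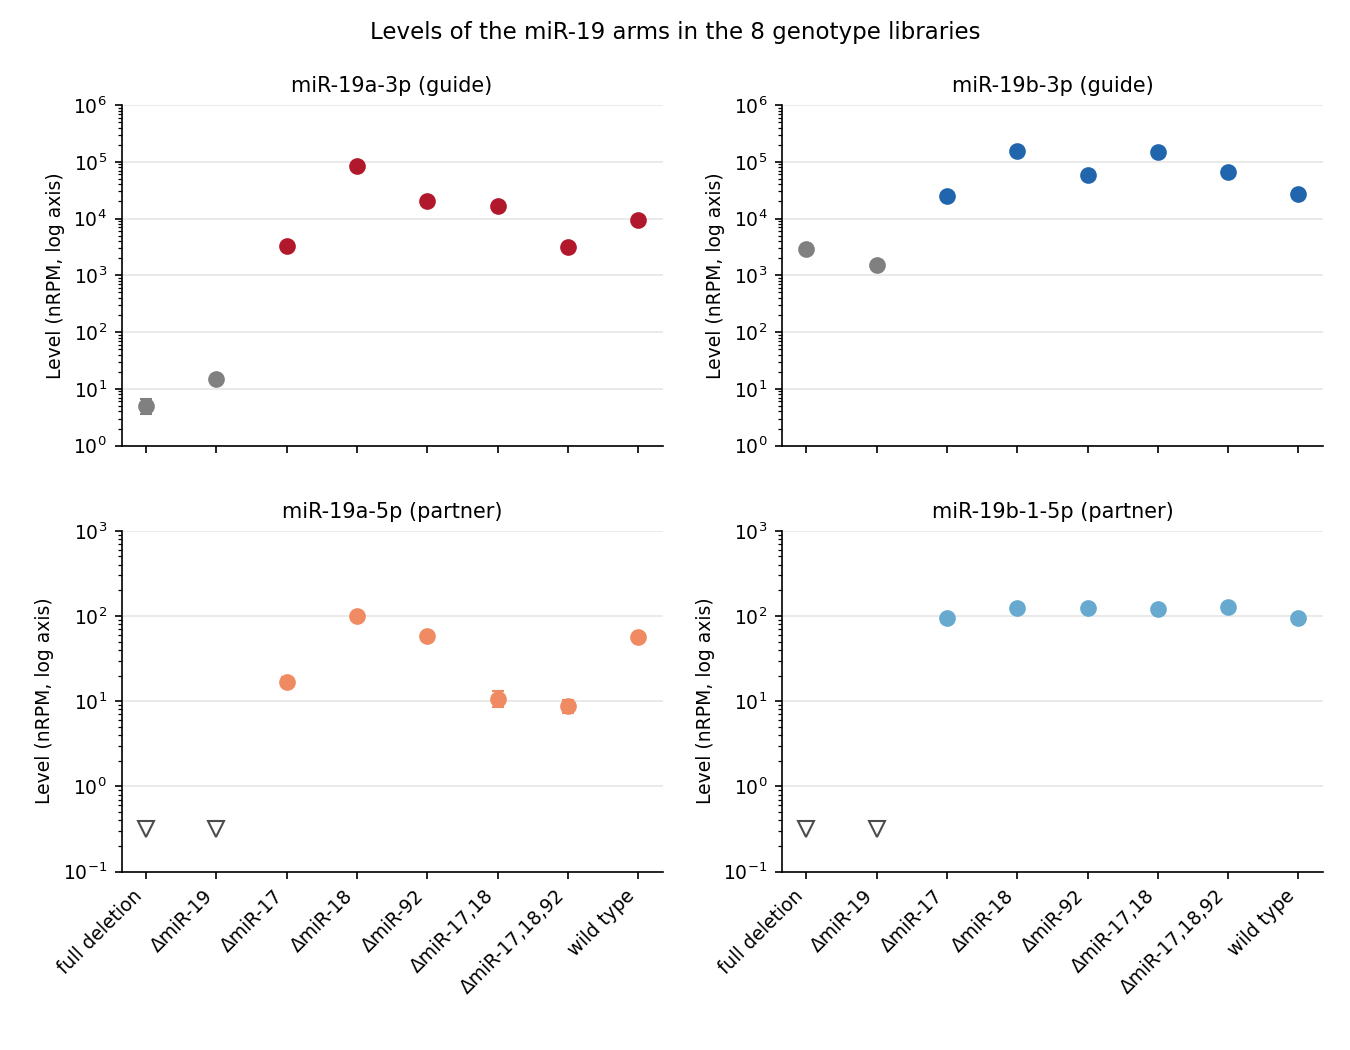
Level of each miR-19 arm in nRPM on a log axis, 1 point per library, with the 2 libraries without miR-19 in grey on the left and wild type on the right. Bars are exact 95% counting intervals, smaller than most points, and open triangles mark 0 reads, drawn at the level of 3 reads. Over the 6 libraries that kept miR-19, miR-19b-1-5p stayed between 95.4 and 127 nRPM while miR-19a-3p lay between 3157 and 83046 nRPM.

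Where miR-19 was kept, the 4 arms spread very unequally over the 6 libraries. miR-19a-3p had 3221 nRPM in ΔmiR-17, 83046 nRPM in ΔmiR-18, 20142 nRPM in ΔmiR-92, 16804 nRPM in ΔmiR-17,18, 3157 nRPM in ΔmiR-17,18,92 and 9621 nRPM in wild type. Its lowest levels were in ΔmiR-17,18,92 and ΔmiR-17, which differed by only 1.02-fold (1.01 to 1.03), and ΔmiR-18 stood above the next library, ΔmiR-92, by 4.12-fold. miR-19b-3p had 25168 nRPM in ΔmiR-17, 155570 nRPM in ΔmiR-18, 59391 nRPM in ΔmiR-92, 147990 nRPM in ΔmiR-17,18, 67215 nRPM in ΔmiR-17,18,92 and 26894 nRPM in wild type. It was highest in the libraries without miR-18, and all 3 of these lay above all 3 that kept miR-18.

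The partner arm miR-19a-5p had 16.97 nRPM in ΔmiR-17, 99.7 nRPM in ΔmiR-18, 57.8 nRPM in ΔmiR-92, 10.6 nRPM in ΔmiR-17,18, 8.66 nRPM in ΔmiR-17,18,92 and 56.4 nRPM in wild type. Those with the miR-17 family deleted were the 3 lowest, and ΔmiR-17,18 and ΔmiR-17,18,92 did not differ beyond counting error (1.23-fold, 0.930 to 1.62), nor did ΔmiR-92 and wild type (1.03-fold, 0.887 to 1.19). miR-19b-1-5p had 95.6 nRPM in ΔmiR-17, 124.3 nRPM in ΔmiR-18, 124.4 nRPM in ΔmiR-92, 120.0 nRPM in ΔmiR-17,18, 127 nRPM in ΔmiR-17,18,92 and 95.4 nRPM in wild type. ΔmiR-17 and wild type did not differ beyond counting error (1.003-fold, 0.91 to 1.11), and of the other 4 libraries no neighbours in the order did.
From the lowest to the highest of the 6 libraries, miR-19a-3p spanned 26.3-fold, miR-19a-5p 11.5-fold, miR-19b-3p 6.18-fold and miR-19b-1-5p 1.33-fold. The median over 548 miRNAs was 2.33-fold. A wider span than that of miR-19a-3p was seen for 1.64% of them and a wider span than that of miR-19b-1-5p for 97.1%.

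Counting arms at least 2-fold from wild type gave 11 of 20 combinations of an arm and a mutant library, 8 of 10 on the guides and 3 of 10 on the partners. In ΔmiR-17 both arms of miR-19a were lower, where 8.17% of all miRNAs tested were. In ΔmiR-18 and in ΔmiR-92 both guides were higher, where 9.26% of miRNAs were in each. In ΔmiR-17,18 miR-19b-3p was higher (12.2% of miRNAs) and miR-19a-5p lower (13.6%). In ΔmiR-17,18,92 miR-19b-3p was higher (11.8%) and both arms of miR-19a lower (10.9%). No library had miR-19b-1-5p past 2-fold.

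The alleles allow the loss of each neighbouring family to be read in 2 backgrounds, with the families that both libraries lack held the same. These pairs share libraries with each other, so they are set side by side and not tested against each other. Without the miR-17 family, miR-19a was lower on both arms while miR-19b was close to its level with it. miR-19a-3p stood at 0.335 (0.331 to 0.339) of its level in ΔmiR-17 over wild type, and at 0.202 (0.201 to 0.203) in ΔmiR-17,18 over ΔmiR-18. miR-19a-5p stood at 0.301 (0.254 to 0.356) in the first pair and 0.107 (0.0857 to 0.132) in the second. For miR-19b-3p the ratios were 0.936 and 0.951, and for miR-19b-1-5p 1.003 and 0.965. Scaled to plain read totals, miR-19b-3p lay above wild type in ΔmiR-17, at 1.08. In ΔmiR-17, miR-18a-5p, from the hairpin between Mir17 and Mir19a, had 3446 nRPM, against 10099 nRPM in wild type. Its partner miR-18a-3p had 67.9 against 254 nRPM. Of the arms of Mir92-1, at the end of the cluster, miR-92a-3p had 116098 against 199542 nRPM and miR-92a-1-5p 1679 against 1442 nRPM. In ΔmiR-17, 8.17% of all miRNAs tested were 2-fold or more lower than in wild type.

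Without miR-18, both guides were higher and the partners were not higher to the same extent. The ratio of miR-19a-3p was 8.63 (8.56 to 8.70) for ΔmiR-18 over wild type and 5.22 (5.16 to 5.27) for ΔmiR-17,18 over ΔmiR-17. miR-19b-3p was 5.78-fold (5.76 to 5.81) and 5.88-fold (5.86 to 5.90) higher in these pairs, and 1.63% and 2.0% of miRNAs lay at least as far from 1. miR-19b-1-5p stood at 1.30 (1.19 to 1.43) and 1.25 (1.16 to 1.36), where the median miRNA lay 1.34-fold and 1.48-fold from 1 in either direction. miR-19a-5p was 1.77-fold (1.58 to 1.99) higher in the first pair and stood at 0.628 (0.488 to 0.802) in the second.

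Loss of miR-92 went with opposite differences in its 2 backgrounds. In ΔmiR-92 over wild type, miR-19a-3p stood at 2.09 (2.07 to 2.11) and miR-19b-3p at 2.21 (2.196 to 2.22). In ΔmiR-17,18,92 over ΔmiR-17,18, they stood at 0.188 (0.186 to 0.190) and 0.454 (0.453 to 0.455). At least as far from 1 lay 16.4% and 14.9% of miRNAs in the first pair, and 2.36% and 12.2% in the second. The partner arms lay nearer 1 than the guides in both pairs. miR-19a-5p stood at 1.03 (0.887 to 1.19) and 0.813 (0.617 to 1.08). miR-19b-1-5p stood at 1.30 (1.17 to 1.45), beyond counting error, and at 1.06 (0.982 to 1.15). The median miRNA lay 1.39-fold and 1.34-fold from 1 in either direction. Like the second pairs for miR-17 and for miR-18, this second pair rests on ΔmiR-17,18, the library that stood apart.

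**Figure D3:**
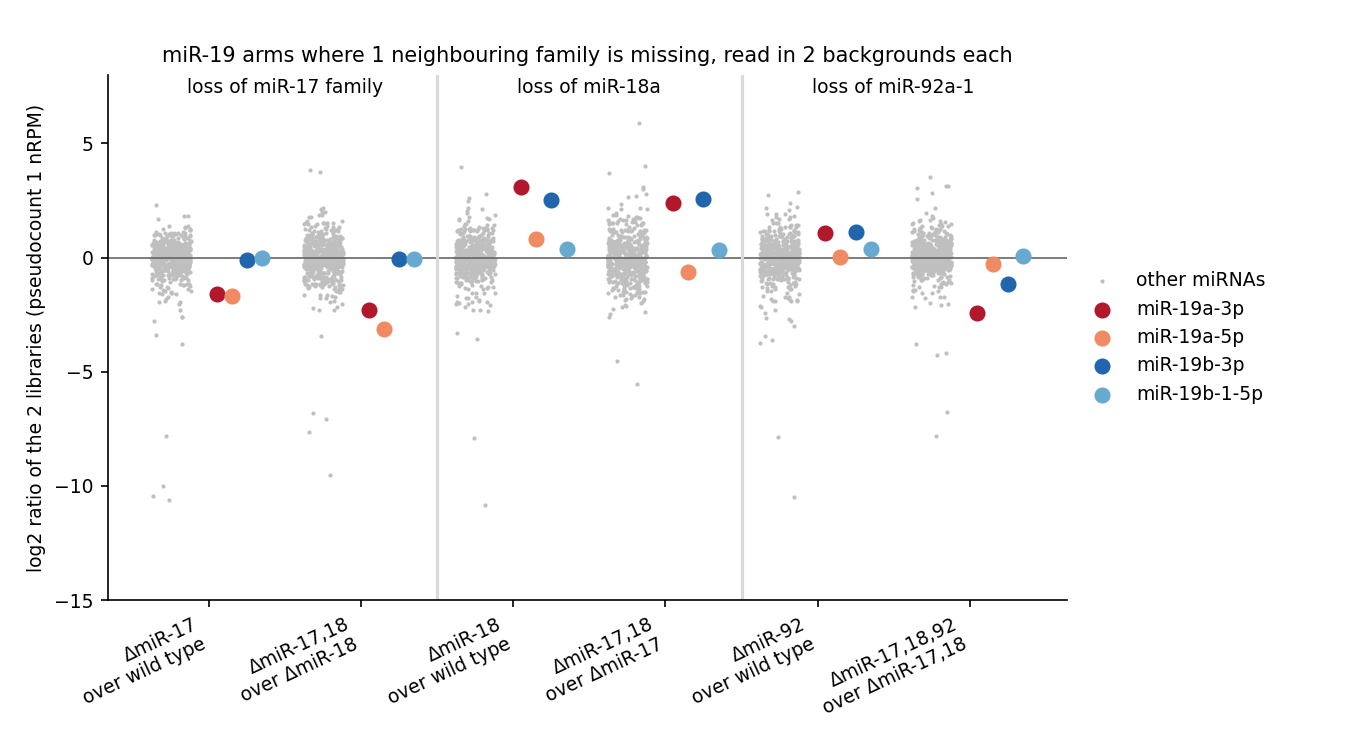
Log2 ratio of the library without a neighbouring family over the library with it (pseudocount 1 nRPM), in 2 backgrounds for each of miR-17, miR-18 and miR-92. Coloured points are the 4 miR-19 arms and grey points the other miRNAs averaging 10 nRPM or more, with the arms deleted by each allele among the lowest. Both arms of miR-19a lie below 0 in both pairs without miR-17, and both guides lie above 2 in both pairs without miR-18.

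In a limma model with additive terms for miR-17, miR-18 and miR-92 over the 6 libraries that kept miR-19, no miR-19 arm passed the adjusted p of 0.05. That model has 2 residual degrees of freedom. For loss of miR-17, where 4 of 551 miRNAs (0.726%) passed, the term was -2.47 ± 0.44 for miR-19a-5p (log2, SE; limma adjusted p = 0.140) and -2.81 ± 0.67 for miR-19a-3p (limma adjusted p = 0.507). For miR-19b-3p it was -0.65 ± 0.44 and for miR-19b-1-5p -0.10 ± 0.32. For loss of miR-18, where 0 of 551 (0%) passed and 32 had an unadjusted p under 0.05, it was 1.97 ± 0.44 for miR-19b-3p (limma adjusted p = 0.754), 1.88 ± 0.67 for miR-19a-3p (0.785), 0.28 ± 0.32 for miR-19b-1-5p and 0.02 ± 0.44 for miR-19a-5p. The deleted arms themselves did not pass for miR-18, with miR-18a-5p at -9.16 (limma adjusted p = 0.0609) and miR-18a-3p at -6.43 (limma adjusted p = 0.0588). The lack of a call for this term is thus no evidence that an arm was unchanged. All miRNAs that passed for miR-17 and miR-92 were arms of the deleted families. For loss of miR-92, where 2 of 551 (0.363%) passed, the term lay between -0.85 ± 0.67 for miR-19a-3p and 0.22 ± 0.32 for miR-19b-1-5p, with 0.01 ± 0.44 for miR-19b-3p. The sign of this term turned for both guides when 1 library was left out. It was -2.59 for miR-19a-3p and -1.13 for miR-19b-3p without ΔmiR-92, against 0.88 and 1.15 without ΔmiR-17,18,92, and -0.27 for miR-19b-3p without wild type, with no call.
edgeR (quasi-likelihood, recovered reads) called 0 of the 4 arms for each term, among 0.544% of miRNAs for miR-17, 0% for miR-18, with 26 at an unadjusted p under 0.05, and 0.363% for miR-92. DESeq2's Wald test called both arms of miR-19a for loss of miR-17 (DESeq2 adjusted p = 0.00210 for the guide and 4.26e-05 for the partner), among 1.09% of miRNAs, and miR-19b-3p for loss of miR-18 (DESeq2 adjusted p = 0.0380), among 1.09%.

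The limma calls changed when single libraries were left out. Without ΔmiR-17,18, limma called both arms of miR-19a for loss of miR-17 (-3.16 with limma adjusted p = 6.52e-06 for the guide, and -2.33 with limma adjusted p = 0.0109 for the partner). These were among 1.63% of miRNAs called. Without ΔmiR-17,18,92 or without wild type it called miR-19a-3p alone of the 4 arms (-1.94, limma adjusted p = 0.0190, and -3.34, limma adjusted p = 0.0443). There 0.907% and 0.899% of miRNAs were called. For loss of miR-18 it called both guides without ΔmiR-17,18, without ΔmiR-17,18,92 and without ΔmiR-92, at 1.53 to 2.75 for miR-19a-3p and 1.69 to 2.54 for miR-19b-3p. In these fits 1.81%, 1.09% and 0.907% of miRNAs were called. Without ΔmiR-17,18, 3 miRNAs called for miR-17 and 6 called for miR-18 lay outside the cluster, against 0 or 1 in the other fits named. Each of these fits has 5 libraries and 1 residual degree of freedom.

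Each of the 4 arms was split by miR-17, by miR-18 and by miR-92 among the 6 libraries. For 3 arms the groups did not overlap in 1 of these splits, and in all other splits they overlapped. The shares of miRNAs given beside them each count 1 direction of 1 split. miR-19a-5p averaged 12.1 ± 4.34 nRPM without miR-17 and 71.3 ± 24.6 nRPM with it (SD, n = 3 each), and 4.17% of miRNAs were lower without overlap in this split. miR-19b-3p averaged 123592 ± 48970 nRPM without miR-18 and 37151 ± 19280 nRPM with it (SD, n = 3 each), and 5.81% of miRNAs were higher without overlap. miR-19b-1-5p averaged 125.8 ± 2.05 nRPM without miR-92 (SD, n = 2) and 108.8 ± 15.5 nRPM with it (SD, n = 4), and 5.81% were higher without overlap, but 124.4 nRPM in ΔmiR-92 and 124.3 nRPM in ΔmiR-18 were equal within counting error.

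Ratios between arms of 1 library do not depend on how libraries are scaled. The guide of miR-19a was counted 189.8 times per partner read in ΔmiR-17, 833 times in ΔmiR-18, 348 times in ΔmiR-92, 1578 times in ΔmiR-17,18, 365 times in ΔmiR-17,18,92 and 171 times in wild type. For miR-19b the ratio of miR-19b-3p to miR-19b-1-5p was 1251 in ΔmiR-18, 1233 for ΔmiR-17,18, 528 in ΔmiR-17,18,92, 478 for ΔmiR-92, 263 in ΔmiR-17 and 282 in wild type. Both hairpins thus had their lowest ratios in ΔmiR-17 and wild type and their highest in ΔmiR-18 and ΔmiR-17,18. In the 3 libraries without miR-18 both ratios were above those of the 3 with it, though by little at the nearest pair (365 in ΔmiR-17,18,92, 306 to 438, against 348 in ΔmiR-92, 316 to 385, for miR-19a). Among 173 hairpins with both arms averaging 10 nRPM or more, 5.78% had a ratio that was higher without overlap in this split.
The ratio of miR-19a spanned 9.25-fold over the 6 libraries and that of miR-19b 4.75-fold, where the median hairpin spanned 3.54-fold and 17 and 59 hairpins spanned more. Without ΔmiR-17,18 the span of miR-19a was 4.88-fold. In ΔmiR-18 the ratio was 4.88 times that of wild type for miR-19a and 4.44 times for miR-19b, and 11.6% of hairpins were 2-fold or more higher there, with a median of 0.911.

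Set against each other within a library, miR-19b exceeded miR-19a everywhere, and most where the miR-17 family was missing. On the guide arms miR-19b-3p was 7.81 times miR-19a-3p in ΔmiR-17, 8.81 times in ΔmiR-17,18 and 21.3 times in ΔmiR-17,18,92, against 1.87 times in ΔmiR-18, 2.95 times in ΔmiR-92 and 2.80 times in wild type. On the partner arms miR-19b-1-5p was 5.64 times (4.89 to 6.52) miR-19a-5p in ΔmiR-17, 11.3 times (9.11 to 14.1) in ΔmiR-17,18 and 14.7 times (12.3 to 17.8) in ΔmiR-17,18,92. It was 1.25 times (1.17 to 1.33) in ΔmiR-18, 2.15 times (1.91 to 2.43) in ΔmiR-92 and 1.69 times (1.48 to 1.93) in wild type. The 6 libraries had the same order on both arms, and those without miR-17 did not overlap those with it. How many other pairs of miRNAs split in this way was not counted. This split was noticed after the values had been seen and was not tested, as 3 libraries against 3 cannot give a two-sided exact p under 0.1. The guide ratio also holds any reads that miR-19b-3p has from the X-linked copy, which the partner ratio does not.

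**Figure D4:**
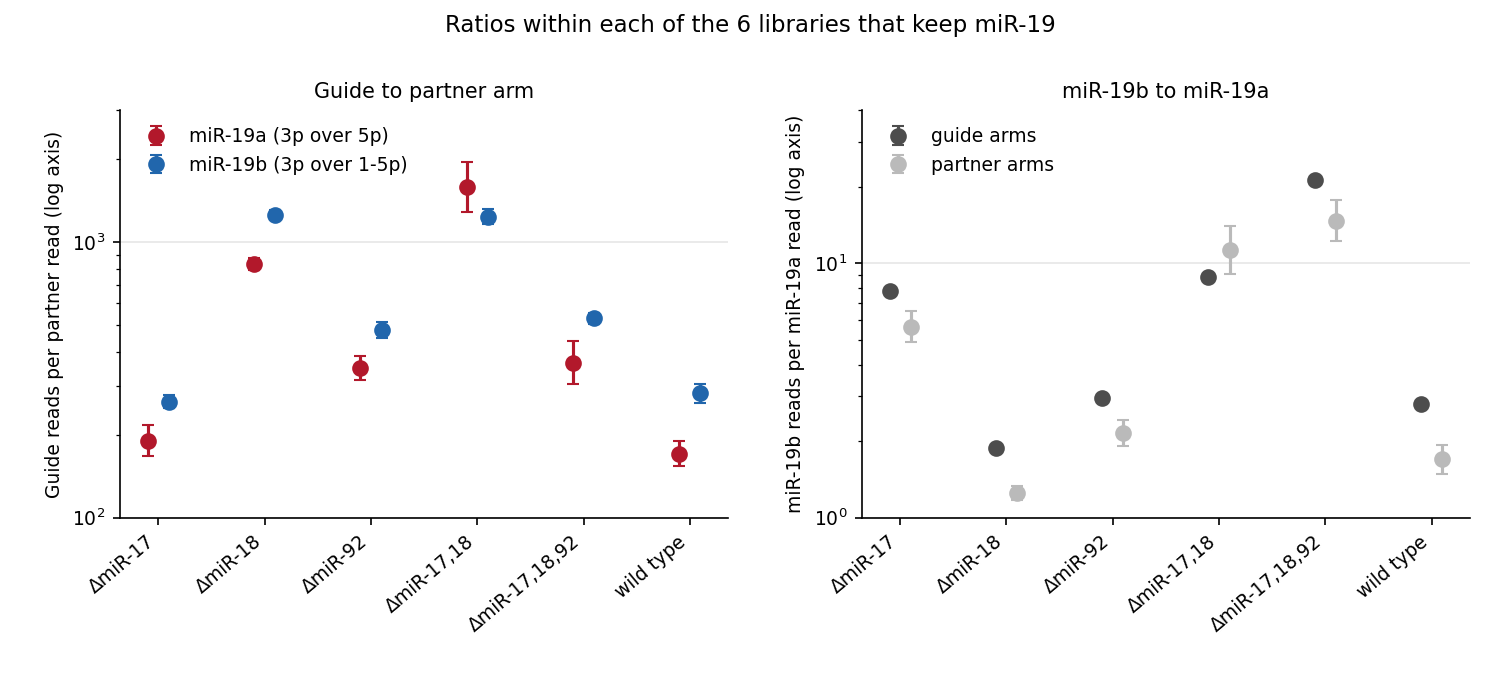
Left, guide reads per partner read of each miR-19 hairpin, and right, miR-19b reads per miR-19a read on guide and partner arms, in the 6 libraries that kept miR-19, on log axes with exact 95% counting intervals. Guide to partner ratios are highest in ΔmiR-18 and ΔmiR-17,18 for both hairpins. miR-19b to miR-19a ratios are 5.64 or more in the 3 libraries without miR-17 and 2.95 or less in the others.

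Since both guides share a seed, their sum gives the seed's share of all miRNA reads. It took 0.301% in the full deletion and 0.159% in ΔmiR-19. Where miR-19 was kept, it took 20.7% of reads in ΔmiR-18, 15.5% of reads in ΔmiR-17,18, 8.47% of reads in ΔmiR-92, 8.23% of reads in ΔmiR-17,18,92, 2.96% of reads in ΔmiR-17 and 3.30% of reads in wild type. Among these 6 libraries, miR-19b-3p was the most abundant of all miRNAs in 4 (ΔmiR-92 and the 3 without miR-18), and ranked 6 in ΔmiR-17 and 7 in wild type. The most abundant in wild type was miR-92a-3p, with 18.0% of reads. It took 5.94% in ΔmiR-18 and 5.68% in ΔmiR-17,18. In ΔmiR-92 and ΔmiR-17,18,92, where miR-92 was deleted, it took 0.0928% and 0.0638%. miR-19a-3p gave 34.8% of the sum in ΔmiR-18 and 4.49% in ΔmiR-17,18,92, against 26.3% in wild type.

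The miRNAs most like each guide over the 6 libraries that kept miR-19 were named by Pearson's r of log2 levels among 329 miRNAs averaging 100 nRPM or more, as a description of 6 points that share depth and scaling. For miR-19b-3p they were miR-322-5p (r = 0.98), miR-34c-5p (0.94) and miR-27b-3p (0.92). For miR-19a-3p they were miR-382-3p (0.85), miR-142-5p (0.82), known from blood cells, and miR-30a-3p (0.82). The median of the highest r of each of the 329 miRNAs was 0.96. A highest r at least that of miR-19b-3p was seen for 28.6% of them, and one at least that of miR-19a-3p for 98.5%.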

How the data were processed

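Trizol was used for the RNA, per the labels' protocols. Build mm9 and the tools Subread 1.4.2 with featureCounts, SAMtools 0.1.19 and STAR 2.2.0 are named in the submitters' processing notes. The authors deposited 1 signal value per row and library, reads divided by a size factor (whole reads recovered for 100% of values, within 0.001 reads). Some mature miRNAs, miR-19b-3p among them, have more than 1 row. The deposited signal values were multiplied by 0.116 to give nRPM. Of 1046 rows, those of 1 accession within 10% were merged and the higher kept, leaving 986. The rows of miR-19b-3p differed by 0.0638% to 0.833%.

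limma 3.58.1 with trend was run on log2(nRPM + 1), which understates changes of low miRNAs. It covered miRNAs with an average of at least 10 nRPM, adjusted over all 551 by Benjamini-Hochberg. It was also tested on simulated reads, drawn with the same spread in every library, which does not cover a library that stands apart. edgeR 4.0.16 and DESeq2 1.42.0 were run on recovered reads as alternatives. Other alternatives were the pseudocount, filter, trend, scaling, the rows of miR-19b-3p and leaving out a library. The named miRNAs were the 4 arms, cluster and paralog arms as counts, and for each guide the 3 highest r. Members and lists were chosen with earlier results of these data known. The library of 3023436 undetermined reads entered no comparison. With no replicates, p-values measure only how single libraries, each of another genotype, spread. In the models that spread is taken around additive terms, so effects of 1 family that differ between backgrounds enlarge it.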

Additional observations from a re-analysis of the deposited data

Results flagged for a closer look

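The loss of 1 family went with differences of opposite sign in 2 backgrounds for 3 arms, each ratio's counting interval lying wholly on its side of 1. miR-19a-5p stood at 1.77 in ΔmiR-18 over wild type and at 0.628 in ΔmiR-17,18 over ΔmiR-17. miR-19a-3p stood at 2.09 in ΔmiR-92 over wild type and at 0.188 in ΔmiR-17,18,92 over ΔmiR-17,18. miR-19b-3p stood at 2.21 and 0.454 in these last pairs. Of the miRNAs compared, 12.2% to 40.5% lay at least as far from 1, but 2.36% for the second ratio of miR-19a-3p. With 1 library per genotype the differences between backgrounds were not tested, and ΔmiR-17,18, the library that stood apart, enters each second ratio.

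The library of undetermined reads, which has no genotype, held all 4 arms above the libraries without miR-19. It had 23218 nRPM of miR-19a-3p, 33.8 nRPM of miR-19a-5p, 75930 nRPM of miR-19b-3p and 90.8 nRPM of miR-19b-1-5p.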

How the results depend on the processing

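Limits: 1 library per genotype, 2 or 3 residual degrees of freedom, miR-19b-3p shared with an X-linked locus, and 93 to 1598 reads behind miR-19a-5p. No paired analysis was possible because each genotype has 1 library.

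For deleted against kept libraries, the log2 difference of miR-19a-5p was -2.05 (exact permutation p = 0.107) with a pseudocount of 10. Leaving out 1 library gave -10.96 to -9.52 for miR-19a-3p, -5.22 to -4.54 for miR-19a-5p, -5.35 to -4.46 for miR-19b-3p and -6.89 to -6.81 for miR-19b-1-5p. Leaving out the full deletion or ΔmiR-19 sets 1 library against 6, and the smallest exact permutation p is then 0.143.

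For the miR-19 term, a filter at 100 nRPM tests only 2 of the arms and called 2 of them and 2 miRNAs in all, and a pseudocount of 10 called 3 arms and 3 miRNAs. Leaving out 1 library gave 3 to 4 arms and 3 to 5 miRNAs. For the miR-17 term, DESeq2 called 2 arms, and leaving out 1 library gave 0 to 2 arms and 3 to 9 miRNAs, against 0 and 4. For the miR-18 term, DESeq2 called 1 arm and 6 miRNAs, and leaving out 1 library gave 0 to 2 arms and 0 to 10 miRNAs, against 0 and 0. There 2 miRNAs were called with a pseudocount of 10, under each of 4 other scalings and in the model over all 8 libraries. For the miR-92 term, leaving out 1 library gave 2 to 15 miRNAs, against 2.

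miR-19b-3p left was 12.4% in the full deletion and 6.49% in ΔmiR-19 with plain totals, 9.08% and 5.92% with totals outside the cluster, and 10.8% in the full deletion with TMM. Plain totals moved the median of all miRNAs by up to 0.37 (log2), in ΔmiR-17,18,92. Under the 4 scalings 10 or 11 of 20 kept combinations were 2-fold from wild type.

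Some terms changed sign, with no call in any of the fits where they did. The miR-17 term of miR-19b-1-5p was 0.083 with plain totals. The miR-18 term of miR-19a-5p was -0.068 with plain totals, -0.083 with edgeR, -0.017 with DESeq2 and -0.70 to 0.73 leaving out 1 library. The miR-92 term of miR-19a-5p was 0.11 over 8 libraries. That of miR-19b-3p was -0.050 with TMM, -0.014 with median ratios, -0.080 over 8 libraries and -1.13 to 1.15 leaving out 1 library. That of miR-19a-3p was -2.59 to 0.88 leaving out 1 library. The causes were not tested. Taking the lower row of miR-19b-3p, added to the models after seeing the data, changed no call of the 4 arms.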

Other observations

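In the library of undetermined reads, the guide was counted 687 times (563 to 849) per partner read for miR-19a and 836 times (740.3 to 949) for miR-19b. miR-19b exceeded miR-19a there 3.27 times on the guide arms and 2.69 times on the partner arms. miR-19b-2-5p of the X-linked locus had 9.15 nRPM (26 reads).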
